A study of Mus musculus with 6 samples.

Results

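The activity-induced immediate early genes Fos, Fosb, Fosl2, Junb, Egr1, Egr2, Arc, Npas4, Nr4a1 and Ier2 were followed in the cortex of young and aged mice. They were picked by name, by matching the identifiers in the count data to gene symbols, and are 10 of the 38355 genes listed. Polyadenylated RNA was sequenced from whole cortical hemispheres of C57BL/6 mice, with 3 samples at 6 months and 3 at 16 months, and the comparison asks how cortical expression differs between these ages. All animals were wild type, lived under a light and dark cycle with free food and water, and were anesthetized with chloral hydrate before the cortex was taken out and frozen. No stimulus or task is described for them, and the hour of dissection is not given in the sources used here. By the study's methods each sample is a separate brain, but the labels do not say so, and p-values measure the spread between these samples. A hemisphere mixes neurons with glia and vessel cells, and in such bulk RNA fewer cells of a type and less RNA per cell cannot be told apart.

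Immediate early genes are transcribed within minutes of synaptic activity, from factors that are already present in the neuron and without new protein synthesis. Calcium entry through NMDA receptors and voltage-gated channels signals to CREB, to the serum response factor with its ELK partners, and to MEF2, which act at the promoters and enhancers of these genes. Most of the products are transcription factors that switch on later genes, while Arc acts at the synapse itself. In the cortex of undisturbed animals the transcripts are present at a basal level that follows ongoing activity, and they are widely used to mark recently active neurons.

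To show the regulatory sequence of these genes, the 250 bases upstream of the transcription start were read from RefSeq on GRCm38.p6, where 7 of the 10 genes had an entry. Arc, Ier2 and Egr1 had none in the table used here. The windows were searched on both strands for TGACG, an arm of the cyclic AMP response element that CREB binds, which lies within the full element TGACGTCA, and for the TATA box TATAAA. Below, capitals mark TGACG, or CGTCA where it lies on the other strand, and TATAAA. Fos (chr12:85473640-85473889, plus strand) and Nr4a1 (chr15:101266596-101266845, plus strand, upstream of a start that lies inside the annotated gene) are shown as the classical members with TGACG at several places, and Fosb (chr7:19310046-19310295, minus strand) and Egr2 (chr10:67535249-67535498, plus strand) as members whose samples lay apart between the ages in opposite directions.
Fos: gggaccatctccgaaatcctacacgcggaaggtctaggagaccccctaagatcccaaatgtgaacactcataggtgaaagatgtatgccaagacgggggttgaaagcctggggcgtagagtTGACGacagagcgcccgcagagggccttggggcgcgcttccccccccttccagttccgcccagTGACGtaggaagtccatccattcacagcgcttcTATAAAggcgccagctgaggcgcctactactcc
Nr4a1: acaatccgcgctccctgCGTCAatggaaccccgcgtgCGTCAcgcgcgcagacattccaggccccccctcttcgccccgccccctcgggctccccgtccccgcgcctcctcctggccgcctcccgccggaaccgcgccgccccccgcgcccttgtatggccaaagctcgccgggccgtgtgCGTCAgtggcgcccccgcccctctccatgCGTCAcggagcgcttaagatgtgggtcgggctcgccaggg
Fosb: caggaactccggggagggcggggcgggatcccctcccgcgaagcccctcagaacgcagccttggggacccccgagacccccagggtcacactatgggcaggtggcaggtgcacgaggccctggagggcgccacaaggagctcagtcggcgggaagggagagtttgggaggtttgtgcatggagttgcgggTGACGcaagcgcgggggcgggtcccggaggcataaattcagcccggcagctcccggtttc
Egr2: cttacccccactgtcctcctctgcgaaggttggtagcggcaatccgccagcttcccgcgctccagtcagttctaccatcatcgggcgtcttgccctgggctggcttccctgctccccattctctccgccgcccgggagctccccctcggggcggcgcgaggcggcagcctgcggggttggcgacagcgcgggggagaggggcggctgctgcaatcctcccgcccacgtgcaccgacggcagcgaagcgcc

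TGACG was present in 5 of the 7 windows, against 17.8% of the 32851 windows of this length in RefSeq. The Fos window held it 129 and 66 bases before the start. It also held the exact string TATAAA 33 bases before the start, as the only one of the 7 (12.4% of all windows). Other forms of the TATA box were not searched for. The Nr4a1 window held TGACG at 4 places, 233, 213, 69 and 40 bases before the start, the Npas4 window at 179 and 169 bases, the Junb window at 106 bases and the Fosb window at 60 bases. The Fosl2 and Egr2 windows held none. The windows of Fosl2, Npas4 and Nr4a1 lie wholly inside the annotated genes, and those of Fosb and Egr2 reach in at the end nearest the start. The full element TGACGTCA (1.55% of all windows), the AP-1 site TGANTCA (6.75%) and the CArG box of the serum response factor (1.47%) were in none of the 7. The EGR site GCGNGGGCG was found in Fosb, Fosl2 and Nr4a1 and in 4.7% of all windows. These matches describe the letters in the windows and are not evidence of binding.

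The samples held between 29797253 and 46519280 counts on genes, and TMM scaling factors were between 0.988 and 1.009. Values below are counts per 1000000 counts after TMM scaling (CPM), and all 10 genes passed the filter on low counts that left 17120 genes for testing. The smallest count of any of the 10 was 189, for Ier2 in the second 6-month sample, and the largest was 14430, for Egr1. In the quasi-likelihood test of edgeR, with p-values adjusted by Benjamini and Hochberg's method over all tested genes, 286 genes or 1.67% passed an adjusted p of 0.05 between the ages, 134 of them higher and 152 lower at 16 months.

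Arc and Egr1 were the most abundant of the 10 genes when levels were set per length. At 6 months the mean level in CPM per kilobase of exon fell from 98.7 for Arc and 68.5 for Egr1 through 32.99 for Nr4a1, 20.6 for Junb, 14.6 for Fos, 7.69 for Fosl2, 5.42 for Npas4, 4.82 for Fosb and 4.09 for Ier2 to 2.74 for Egr2. In this order every sample of a gene lay above every sample of the next. The length is that of all annotated exons joined, and the order could differ with another measure of length. At 16 months Arc stood at 118 ± 14.3 and Egr1 at 80.3 ± 5.67 CPM per kilobase (SD, n = 3), and the order changed at the low end alone, where Ier2 at 4.93 ± 0.943 stood above Fosb at 4.202 ± 0.431. There Npas4 and Ier2 overlapped, as did Ier2 and Fosb, so that the place of Ier2 is not settled beyond the spread of the samples.

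**Figure D1:**
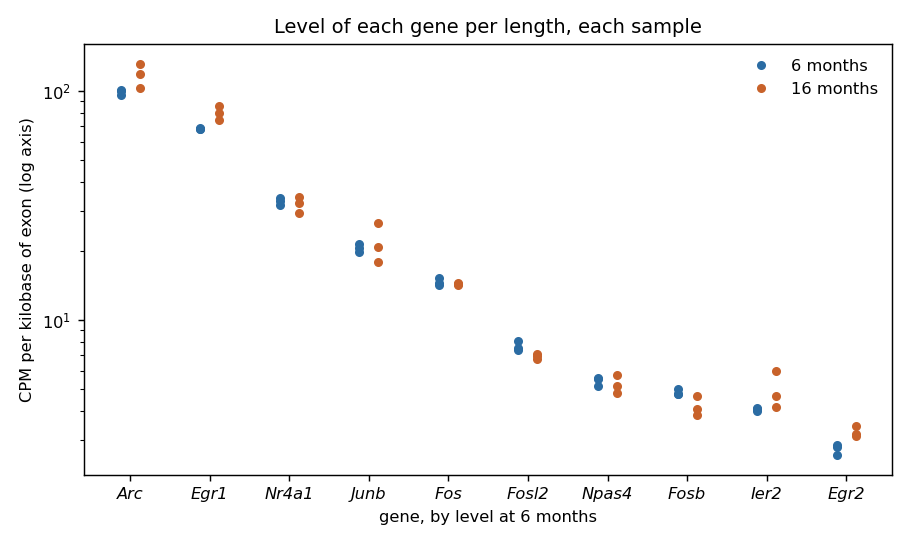
Level of each immediate early gene in CPM per kilobase of exon (logarithmic vertical axis), with the genes on the horizontal axis in the order of their 6-month level. Each point is 1 sample, blue at 6 months and orange at 16 months, and the levels run from Arc at 98.7 down to Egr2 at 2.74 as 6-month means.

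Between the ages, none of the 10 genes passed the adjusted p of 0.05 in edgeR. Egr1, Egr2, Arc and Ier2 had higher fitted means at 16 months, by 17.3% to 20.9%, while Fosb and Fosl2 had lower ones, with differences of -12.8% and -9.72%, with the samples of the ages not overlapping for any of these 6. Ages that do not overlap were seen for 23.7% of all tested genes. Fos, Npas4, Nr4a1 and Junb overlapped, with fitted log2 fold changes from -0.05 for Npas4 to 0.08 for Junb. At an unadjusted p of 0.05 the same test picked 5 of the 10 genes, namely Fosb, Fosl2, Egr1, Egr2 and Arc, against 17.4% of all tested genes, and DESeq2's Wald test called Egr1 alone by adjusted p, against 2.67% of the genes it tested. The median log2 fold change of the 10 genes was 0.02 and that of all tested genes was 0.00. With 3 samples against 3, an exact permutation test, two-sided, cannot give a p under 0.1, and it gave 0.1 for the 6 genes whose ages did not overlap.

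**Figure D2:**
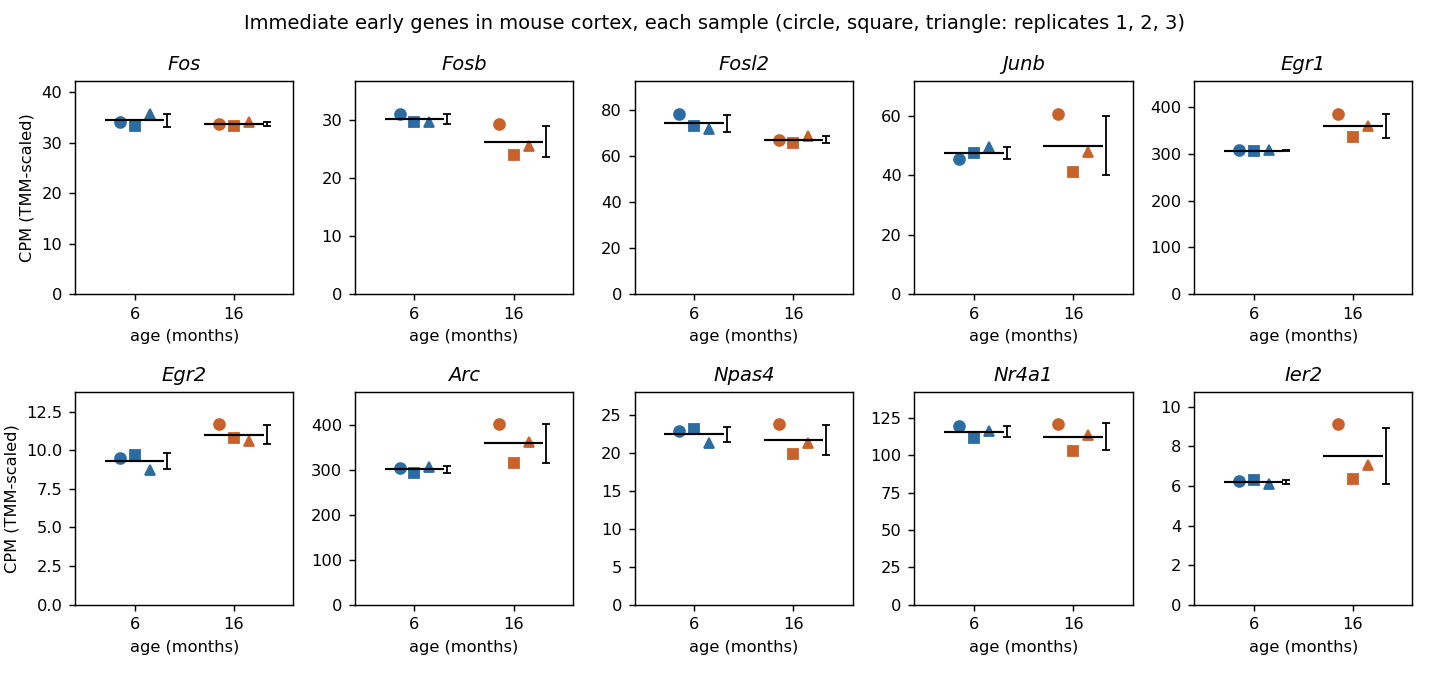
CPM after TMM scaling of each immediate early gene in every sample, 1 panel per gene with its own vertical axis from 0, and age in months on the horizontal axis. Circles, squares and triangles are replicates 1, 2 and 3, the horizontal lines are means, and the brackets are 1 SD to each side; the circle at 16 months is the highest of all 6 samples in 7 panels.

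The AP-1 members came out on different sides. Fos, which pairs with JUN proteins to form the AP-1 factor and is the standard marker of recent neuronal activity, was at 34.1, 33.4 and 35.8 CPM at 6 months and at 33.6, 33.4 and 34.2 CPM at 16 months. The aged samples fell within the narrow range of the young ones or close to it, and the ages overlapped. The log2 fold change of Fos was -0.03 (SE 0.06) with a 95% interval from -0.15 to 0.09, which is -10.02% to 6.57% as a change of the mean (edgeR adjusted p = 0.818). Fos lies on the plus strand of chromosome 12 at 85473890 to 85477273 (GRCm38).

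Fosb, a FOS relative whose shortened product ΔFOSB builds up under repeated stimulation, was at 31.1, 29.6 and 29.6 CPM at 6 months and at 29.2, 24.0 and 25.5 CPM at 16 months. The ages did not overlap, though the first 16-month sample came close to the lowest 6-month samples. Fosb thus had a log2 fold change of -0.20 (SE 0.08) and an edgeR adjusted p of 0.217. Counts per gene do not separate the full-length and the shortened transcript. Fosb lies on the minus strand of chromosome 7 at 19302696 to 19310051.

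Fosl2, which encodes the FOS-related antigen FRA2, was at 78.6, 72.9 and 71.7 CPM at 6 months and at 67.2, 65.6 and 68.7 CPM at 16 months. All 16-month samples were below all 6-month samples, and the means were 74.4 ± 3.66 and 67.2 ± 1.58 CPM (SD, n = 3 each). In edgeR the log2 fold change was -0.15 (SE 0.06) and the adjusted p 0.210. The gene is on the plus strand of chromosome 5 at 32135801 to 32157842.

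Junb, the JUN-family partner in the set, was at 45.4, 47.4 and 49.4 CPM at 6 months and at 60.7, 41.1 and 47.8 CPM at 16 months. The highest and the lowest of the 6 samples were both aged ones, and the SD grew from 2.00 to 9.97 CPM. The log2 fold change was 0.08 (SE 0.12), and it turned to -0.09 without the first 16-month sample. Junb lies on the minus strand of chromosome 8 at 84974484 to 84978718, and 173 bases of its exons overlap Prdx2 on the other strand, so that reads in that stretch cannot be assigned with certainty, the strand setting of the counting not being given.

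The zinc finger factors Egr1 and Egr2 both had higher means at 16 months. Egr1, which binds GC-rich promoter sites and is needed for the late phase of synaptic plasticity, was at 308, 306 and 307 CPM at 6 months and at 386, 336 and 359 CPM at 16 months. The 6-month samples agreed closely, with an SD of 1.07 CPM, and the lowest aged sample was well above them. The log2 fold change of Egr1 was 0.23 (SE 0.06) with a 95% interval from 0.10 to 0.36, and its adjusted p of 0.0882 in edgeR was the lowest of the 10. DESeq2's Wald test gave 0.0262. Egr1 is on the plus strand of chromosome 18 at 34859823 to 34864984.

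Egr2, known for its part in myelination by Schwann cells and induced in neurons by activity, was the least abundant of the 10 per length. It was at 9.47, 9.70 and 8.73 CPM at 6 months and at 11.7, 10.8 and 10.6 CPM at 16 months. The ages did not overlap, and the SD was alike, 0.510 and 0.586 CPM. Its log2 fold change was 0.25 (SE 0.08) with an edgeR adjusted p of 0.145. Egr2 lies on the plus strand of chromosome 10 at 67535475 to 67542188.

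Arc, whose protein drives the removal of AMPA receptors from synapses and whose messenger RNA travels to active dendrites, was at 304, 294 and 308 CPM at 6 months and at 403, 315 and 363 CPM at 16 months. Every aged sample was above every young one, but the SD was 43.8 CPM among the aged samples against 7.09 CPM among the young. The log2 fold change was 0.26 (SE 0.08) with a 95% interval of 5.43% to 35.1% as a change of the mean, and the edgeR adjusted p was 0.149. Arc is on the minus strand of chromosome 15 at 74669083 to 74672570.

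Ier2, a small nuclear protein induced by growth factors and activity, was at 6.25, 6.30 and 6.10 CPM at 6 months and at 9.11, 6.35 and 7.06 CPM at 16 months. The second aged sample stood barely above the highest young one. The mean of 7.51 ± 1.44 CPM at 16 months against 6.22 ± 0.103 CPM at 6 months (SD, n = 3 each) gave the largest fitted log2 fold change of the 10, 0.27 (SE 0.12), with an interval that reaches 0 and an edgeR adjusted p of 0.288. Ier2 is a gene of 1 exon on the minus strand of chromosome 8 at 84661331 to 84662852.

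Npas4 and Nr4a1 did not part by age. Npas4, a factor that is switched on by calcium entry in neurons alone and shapes inhibitory synapses, was at 22.9, 23.1 and 21.3 CPM at 6 months and at 23.7, 19.8 and 21.3 CPM at 16 months. Nr4a1, an orphan nuclear receptor also known as NUR77, was at 119, 112 and 116 CPM at 6 months and at 121, 103 and 114 CPM at 16 months. For both genes the first aged sample was the highest and the second aged sample the lowest of all 6. The log2 fold changes were -0.05 (SE 0.08) for Npas4 and -0.04 (SE 0.07) for Nr4a1, with edgeR adjusted p of 0.779 and 0.777, and the intervals of the mean ran from -14.2% to 8.63% and from -12.4% to 7.39%. Npas4 lies on the minus strand of chromosome 19 at 4984355 to 4990316 and Nr4a1 on the plus strand of chromosome 15 at 101254269 to 101274795. No transcript of another gene matched any of the 10 at 97% identity over 100 bases or more.

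The agreement between replicates differed by age. The median SD of the 10 genes on the log2 scale was 0.049 at 6 months and 0.124 at 16 months, with a larger SD at 16 months in 7 of 10 genes. Egr2, Fosl2 and Fos were the exceptions. This was not particular to immediate early genes: among the 10668 tested genes in the same range of level, the medians were 0.045 and 0.102, and 82.3% had the larger SD at 16 months. For single genes the SD ranged at 16 months from 0.02 for Fos to 0.28 for Junb and 0.27 for Ier2, and at 6 months from 0.01 for Egr1 to 0.08 for Egr2.

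The aged samples departed in the same direction across most of the set. In the first 16-month sample, 9 of the 10 genes were above the mean of their age, by 0.14 on average on the log2 scale, and 7 were the highest of all 6 samples. In the second 16-month sample all 10 were below the mean of their age, by 0.12 on average, and 5 were the lowest of all 6. The summed level of the 10 genes was between 934 and 959 CPM at 6 months, and at 16 months it was 1145, 954 and 1051 CPM. The ages overlapped in this sum, since the second aged sample fell within the range of the young ones.

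This departure moved with base composition. Across tested genes with a known transcript, the deviation of the first 16-month sample from the mean of its age correlated with the GC content of the longest transcript at r = 0.588 and that of the second at r = -0.582, while the other 4 samples gave r between -0.130 and 0.160. The immediate early genes are GC-rich, with a median of 56.5% against 49.7% for all tested genes and a range from 51.4% for Egr2 to 62.6% for Junb. The difference between the first and the second aged sample was 0.56 for Junb, 0.52 for Ier2 and 0.35 for Arc, the 3 members highest in GC content, and 0.11 for Egr2, 0.04 for Fosl2 and 0.01 for Fos, the 3 lowest, all on the log2 scale. Over 20 bins of all tested genes by GC content the median of the same difference ran from -0.41 in the bin centered at 38.2% to 0.41 in the bin centered at 61.3%, and between the first 2 young samples from -0.09 to 0.05. Why the aged samples differ with GC content was not tested.

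**Figure D3:**
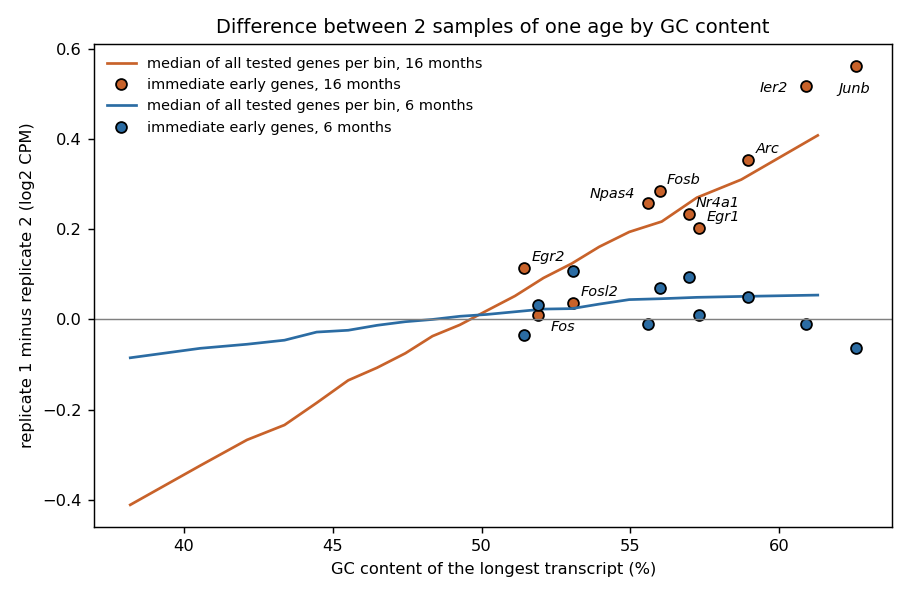
Difference in log2 CPM between replicate 1 and replicate 2 of the same age (vertical axis) against the GC content of the longest transcript in percent (horizontal axis). Lines are medians of all tested genes in 20 bins and points are the immediate early genes, orange at 16 months and blue at 6 months; at 16 months the line runs from -0.41 to 0.41 and Junb reaches 0.56, while at 6 months the line stays between -0.09 and 0.05.

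With the trends of each sample over GC content and length taken out, the median SD of the 10 genes was 0.034 at 6 months and 0.040 at 16 months, against 0.041 and 0.053 for the tested genes in the same range of level. The fitted differences between the ages kept their direction, and their SE was smaller in all 10 genes. Arc then had a log2 fold change of 0.22 (SE 0.03) with an adjusted p of 0.000292 in edgeR with these offsets, and Egr1 of 0.18 (SE 0.03) with 0.00111. Fosb had -0.23 (SE 0.04) with 0.00270, Fosl2 -0.20 (SE 0.04) with 0.00455, Ier2 0.28 (SE 0.08) with 0.0264 and Egr2 0.22 (SE 0.07) with 0.0425. These 6 of the 10 genes passed in that fit, 4 higher and 2 lower, against 14.2% of all tested genes, and Fos, Junb, Npas4 and Nr4a1 did not. In the adjusted levels the ages did not overlap for 7 genes, Nr4a1 being the added one, against 32.4% of all tested genes. The offsets were estimated from the same 6 samples, and the test does not count that estimation among its errors.

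**Figure D4:**
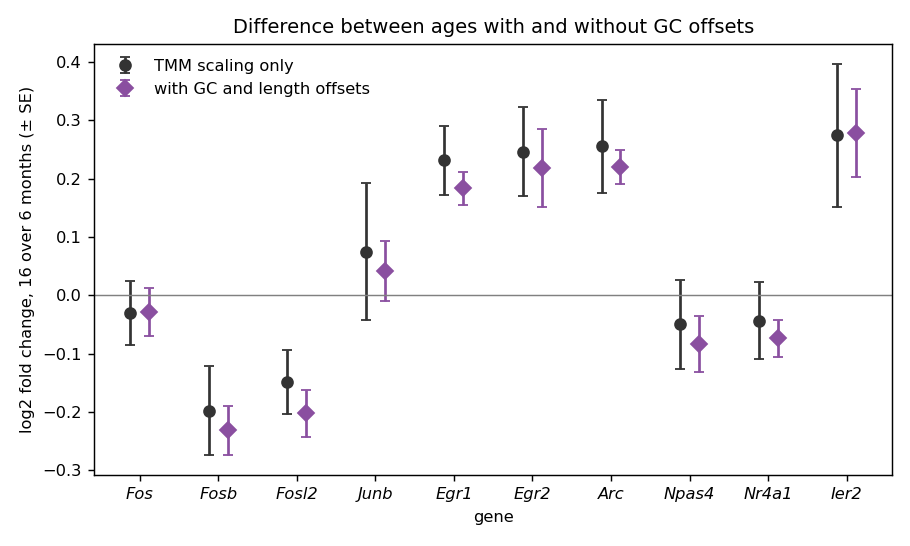
Log2 fold change of each immediate early gene, 16 over 6 months, with bars of 1 SE to each side. Black circles are the fit with TMM scaling alone and purple diamonds the fit with GC and length offsets; Arc moved from 0.26 (SE 0.08) to 0.22 (SE 0.03) and Junb from 0.08 (SE 0.12) to 0.04 (SE 0.05).

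The calls also turned on which aged sample was used. Without the first 16-month sample, edgeR called Fosb (lower) and Egr1 (higher), against 5.73% of all tested genes in that fit. Without the second, it called Egr1, Arc and Ier2, all higher, against 12.7% of all tested genes. The log2 fold change of Ier2 was 0.11 without the first sample and 0.38 without the second, and that of Arc 0.17 and 0.34, whereas Egr1 stayed between 0.18 and 0.28 and Egr2 between 0.20 and 0.28 whichever of the 6 samples was left out. Leaving out any other sample gave no call among the immediate early genes. Those fits called 48 to 58 genes in all, of 17287 to 17361 tested. With so few calls, the lack of one there says little about the immediate early genes.

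Ratios between members within a sample, looked at after the levels had been seen, do not depend on how a library is scaled. The ratio of Egr1 to Nr4a1 was 2.58, 2.74 and 2.64 at 6 months and 3.20, 3.27 and 3.16 at 16 months. These genes are close in GC content, 57.31% and 56.95%, and the aged samples agreed in the ratio although Egr1 itself spread from 336 to 386 CPM among them. The ratio of Arc to Nr4a1 was 2.55, 2.63 and 2.64 at 6 months and 3.34, 3.07 and 3.20 at 16 months. The ratio of Egr1 to Arc, in contrast, overlapped between the ages, at 1.01, 1.04 and 1.00 at 6 months and 0.960, 1.06 and 0.988 at 16 months. Of the 45 pairs of members, 24 had ratios that did not overlap between the ages, against 23.4% of all pairs of tested genes above 0 in every sample, and 21 of these set Egr1, Egr2, Arc or Ier2 against 1 of the other 6 genes, a direction that follows from how the levels had already fallen. A ratio shows that 2 genes changed unequally and not which of them changed.

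In the wider activity program calls were about as frequent as among all genes in the main fit, and more frequent in some other fits. Of 18 other early transcription factors, 20 early effectors and feedback regulators, 10 late response genes and 23 upstream regulators, all tested, edgeR called 1 gene, where 1.67% of all tested genes were called. This was Penk, which encodes the precursor of the enkephalins and is a late response gene, at 116, 120 and 122 CPM at 6 months and 139, 140 and 145 CPM at 16 months. Its log2 fold change was 0.25 (SE 0.05) with an edgeR adjusted p of 0.0404. Penk was called under 10 of 15 alternatives and not under upper quartile scaling or when any of 4 samples was left out. Of the same 4 lists, DESeq2's Wald test called 6 genes, against 2.67% of all genes it tested. They were Penk, Nptx2, Egr3, Arl4d and Grin2b as higher and Nr4a2 as lower. With GC and length offsets edgeR called 18, against 14.2% of all tested genes. The late response genes had a median log2 fold change of 0.17 with 9 of 10 positive, Pcsk1 being the negative one, against a median of 0.00 over all tested genes. These 4 lists too were chosen with earlier results of these data known. Their counts and medians, here and in the next paragraphs, describe the listed genes alone.

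Among these late genes, Nptx2, which clusters AMPA receptors on inhibitory neurons, was at 60.1, 60.6 and 57.2 CPM at 6 months and 86.8, 67.8 and 72.5 CPM at 16 months (log2 fold change 0.35, SE 0.09, edgeR adjusted p = 0.0762). Vgf, a secreted neuropeptide precursor, had a log2 fold change of 0.32 (SE 0.11), Bdnf, the neurotrophin, of 0.04 (SE 0.06) and Pcsk1, a prohormone convertase, of -0.05 (SE 0.05). Neither these nor Nptx2 passed in the main edgeR fit. Nptx2 was called under 7 of 15 alternatives, DESeq2's Wald test among them, Vgf under 5, and Bdnf and Pcsk1 under none. With GC and length offsets 6 of the 10 late genes passed, all higher, against 14.2% of all tested genes.

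Of the 18 other early factors, 8 had ages that did not overlap, against 23.7% of all tested genes, and Fosl1, Jund and Egr4, close relatives of the members, overlapped. Egr3, a sister of Egr1 and Egr2, was at 72.7, 71.1 and 73.2 CPM at 6 months and 114, 77.6 and 97 CPM at 16 months, with a log2 fold change of 0.41 (SE 0.11, edgeR adjusted p = 0.102). Nr4a2, a sister of Nr4a1, was at 79.3, 75.6 and 79.1 CPM and at 62.5, 67.4 and 66.6 CPM, with a log2 fold change of -0.25 (SE 0.05, edgeR adjusted p = 0.0517). In both genes the ages did not overlap. Neither gene passed in the main edgeR fit. Egr3 was called under 7 of 15 alternatives and Nr4a2 under 9. DESeq2's Wald test, which called 2.67% of all genes it tested, was among these for both. The 18 other early factors had a median log2 fold change of 0.09. At the low end were Maff (-0.61, SE 0.19) and Atf3 (-0.56, SE 0.16), stress-responsive factors at low levels, and at the high end Myc (0.31, SE 0.11) and Egr3. With GC and length offsets Jun and Egr3 passed as higher and Nr4a2 and Atf3 as lower, against 14.2% of all tested genes.

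The effectors and feedback regulators had a median log2 fold change of 0.01. At their ends stood Zfp36 (-0.13, SE 0.12), which degrades unstable messenger RNAs, Ier3 (-0.12, SE 0.08), Trib1 (0.22, SE 0.06), a pseudokinase, and Arl4d (0.31, SE 0.08), a small GTPase. None passed in the main edgeR fit. Arl4d was called under 7 of 15 alternatives, DESeq2's Wald test among them, Trib1 under 3, and Zfp36 and Ier3 under none. Homer1, whose short activity-induced form loosens synaptic scaffolds, had a log2 fold change of 0.00 (SE 0.10). Counts per gene do not separate this short form from the other transcripts of Homer1. The upstream regulators had a median of 0.04, from Atf1 (-0.19, SE 0.11), a CREB relative, and Cacna1d (-0.09, SE 0.05), a calcium channel, to Grin2a (0.23, SE 0.11) and Grin2b (0.60, SE 0.14, edgeR adjusted p = 0.0609), subunits of the NMDA receptor. Grin2b was at 84.5, 86.1 and 82.0 CPM at 6 months and at 108, 111 and 164 CPM at 16 months, with the third aged sample far above the others. It was called under 7 of 15 alternatives, DESeq2's Wald test among them, Grin2a under 3, Cacna1d under 2 and Atf1 under none. With GC and length offsets 4 effectors, all higher, and 4 upstream regulators, 3 higher and 1 lower, passed, of 20 and 23 tested, which is near the 14.2% of all tested genes.

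**Figure D5:**
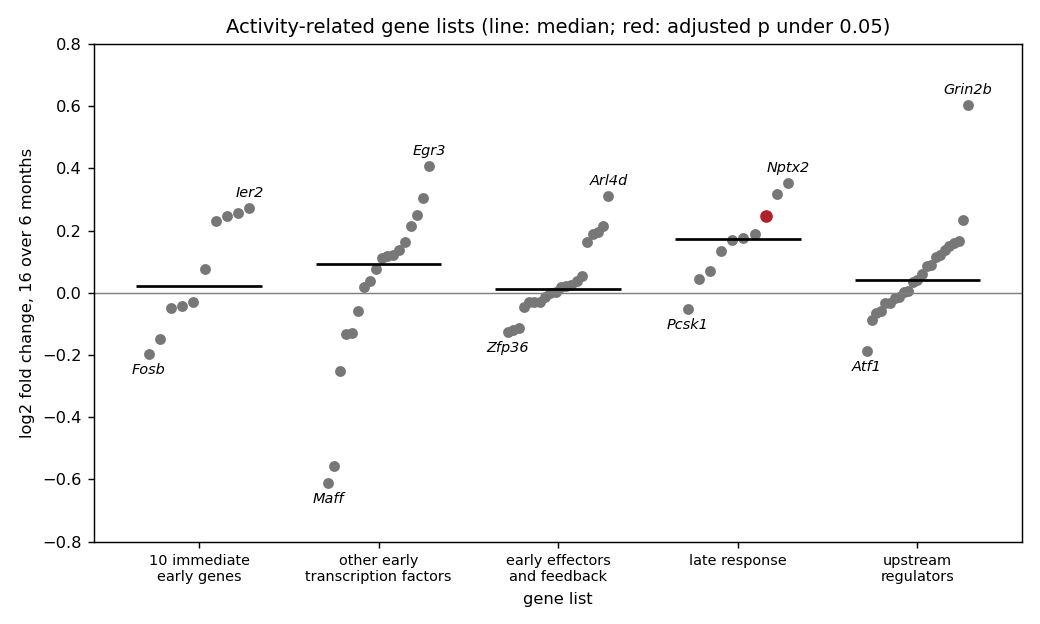
Log2 fold change, 16 over 6 months, of every gene in the 10 immediate early genes and in the lists of other early factors, early effectors, late response genes and upstream regulators. Each point is 1 gene, sorted within its list, the black lines are medians and the red point is Penk, the 1 gene with an adjusted p under 0.05; the medians run from 0.01 for the effectors to 0.17 for the late response genes.

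Other tissue and response genes moved between the ages beside these values. Their lists were chosen with earlier results of these data known, and 1.67% of all tested genes passed with TMM scaling alone. The defining markers of excitatory neurons (Slc17a7, 976 to 1091 CPM from 6 to 16 months), inhibitory neurons (Gad1, 343 to 380 CPM), astrocytes (Aqp4, 174 to 170 CPM), microglia (Cx3cr1, 54.8 to 56.2 CPM) and endothelium (Cldn5, 19.7 to 17.3 CPM) were present at both ages and none passed the test with TMM scaling alone. With GC and length offsets, where 14.2% of all tested genes passed, Slc17a7 (log2 fold change 0.12, adjusted p = 0.0473) and Gad1 (0.12, 0.0151) passed as higher and Cldn5 (-0.18, 0.0275) as lower in edgeR, as did 4 of the 6 inhibitory markers as higher with 1 lower, and 3 of the 6 endothelial markers as lower. Of the 6 astrocyte markers 2 passed as higher and 1 as lower with the offsets, and of the 6 microglia markers 1 as higher and 1 as lower. The part of these cell types in the calls of the immediate early genes under the same offsets was not tested. With TMM scaling alone, single genes fell in the astrocyte list (Gfap, log2 fold change -0.47), the microglia list (Aif1, -0.43) and the endothelial list (Kdr, -0.39), each 1 of 6, and no gene of the 6 excitatory, 6 inhibitory or 6 striatal markers passed, with list medians of 0.13, 0.09 and 0.08.

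Some markers of regions next to the cortex rose, where 1.67% of all tested genes passed in either direction. Earlier results of these data were known when the lists were chosen, so the counts describe the listed genes alone. Of 5 dentate gyrus markers, 3 rose (Dsp 1.26, Lct 1.12 and C1ql2 0.86 on the log2 scale), and the summed level of the list went from 49.7 to 52.5 CPM at 6 months to 70.4 to 74.5 CPM at 16 months. Of 6 thalamus markers, 3 rose, namely Shox2 (from a mean of 0.105 to 1.74 CPM, a few counts per sample at 6 months), Prkcd (0.91 on the log2 scale) and Tcf7l2 (0.44), with sums of 173 to 180 CPM and 176 to 202 CPM, and of 5 choroid plexus markers Ttr rose by 1.00, with sums of 16.5 to 17.97 CPM and 25.0 to 27.9 CPM. Dentate granule cells and thalamic neurons express several of the immediate early genes, and the part of these regions in the differences of Egr1, Egr2, Arc, Ier2 and Penk was not tested.

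Glucocorticoid-induced genes rose in 5 of 6 cases, namely Sgk1 (0.27), Fkbp5 (0.47), Tsc22d3 (0.51), Plin4 (1.11) and Cdkn1a (0.41, all log2 fold changes), with a summed level of 343 to 360 CPM at 6 months and 450 to 468 CPM at 16 months. Of 7 heat shock genes Hspa1b rose (0.41), with a list median of 0.26, and of 12 clock genes none passed, with a median of 0.06. Whether these responses have a part in the levels of the immediate early genes was not tested. The lists of this paragraph too were chosen with earlier results known, and 1.67% of all tested genes passed in either direction.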

How the data were processed

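Cortical polyA RNA from 3 samples at 6 months and 3 at 16 months was sequenced in paired ends with an Illumina TruSeq kit. The authors trimmed the reads, aligned them to mm10 with STAR and counted them per Ensembl gene with HTSeq, and the deposited values are these raw counts, without normalization. The submitters' processing notes list CASAVA 1.8.2, STAR 2.3.0e and featureCounts 1.5.0-p1 instead, so the sources differ on the counter. The annotation release and strand setting are not given in the sources used here. A further 22.0% to 27.8% of the uniquely placed reads fell on no gene and stayed out of all totals. The growth protocol names 3 months for the young animals, while the age label of each sample, followed here, says 6.

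Counts were fitted in edgeR 4.0.16 under R 4.3.3 with TMM scaling, filterByExpr and the quasi-likelihood test without covariates, and p-values were Benjamini-Hochberg adjusted over 17120 genes at 0.05. Standard errors are the fold change divided by the root of F. Log2 CPM used a prior count of 2. Identifiers of 36602 of 38355 genes matched the GENCODE annotation of GRCm38, which gave symbols, exon length and GC content, the last for 98.7% of tested genes. GC and length offsets are medians over 20 bins of genes per sample. Alternatives were other scalings, filters, a robust fit, DESeq2 1.42.0, the replicate number as a block, the offsets, and each sample left out. The code was tested on simulated data, near-identical copies were searched with blastn 2.17.0, and matplotlib 3.10.9 drew the figures. Depth limits precision through counting error only. Every count of the 10 genes was 189 or more, while Maff, Atf3 and Shox2 in the other lists rest on fewer.

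The 10 genes and all lists were chosen with earlier results of these data known. Named are the 10 genes, every listed activity gene past the threshold with the 2 largest and 2 smallest fold changes of each list, the 5 genes most like the 10, 1 defining marker per cell type (1 list of markers is not reported here) and any marker past the threshold; further genes were named after their values were seen.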

Additional observations from a re-analysis of the deposited data

How the results depend on the processing

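The number of immediate early genes called was 0 under DESeq2 size factors, upper quartile scaling, a minimum of 10 counts and the robust fit. It was 2 without a filter, 1 by DESeq2's Wald test, 6 with GC and length offsets, and between 0 and 3 when a sample was left out. Over all genes the count of 286 became 648 without a filter, 470 by DESeq2, 2428 with the offsets, and 48 to 2211 without single samples, the highest value without the second 16-month sample. Of the other activity genes, in lists of 18, 20, 10 and 23, 1 was called, against 1.67% of all tested genes. It was 7 without a filter, where 648 of 27569 tested genes were called, and 2 at a minimum of 10 counts, where 270 of 16146 were. Without single samples it was 0 to 17, with the 0 in fits that called 48 to 58 genes in all. The 17 came without the second 16-month sample, where 12.7% of all tested genes were called. By DESeq2 it was 6, against 2.67% of all genes, and with the offsets 18, against 14.2%. Under upper quartile scaling the 1 call was Nr4a2, lower, and not Penk. The median log2 fold change of the 10 genes ranged from -0.06, without the first 16-month sample, to 0.11 without the second. Junb turned from 0.08 to -0.09 without the first and was 0.195 without the second. The ratio of the median SD at 16 months to that at 6 months fell from 2.51 to 1.16 with GC and length effects removed, and the median range at 16 months from 0.246 to 0.077 on the log2 scale. The cause of these shifts was not tested. Both ages carry replicate numbers 1 to 3, and the deviations of same-numbered samples correlated at 0.180, 0.096 and 0.035 across genes. Their correlations with GC content were 0.160 and 0.588 for the first samples at 6 and 16 months, and -0.130 and -0.582 for the second. Whether same-numbered samples share a processing step is not given in the labels and was not tested. With the replicate block edgeR called 2 of the 10 genes (Egr1, Arc), 783 genes in all and 8 other activity genes, and with the replicate block and the offsets 6, 3303 and 27. Among the 10 genes depth limits Ier2 and Egr2 most, with counts of 189 to 302 and 291 to 444.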

Other observations

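The mean pattern of the 10 immediate early genes over the 6 samples was most closely followed, among genes outside the lists with a mean of at least 1 CPM, by Eef2 (Pearson r = 0.999), a translation elongation factor, and by Btbd2, Faap100, Plcg1 and Cdh22 (r between 0.998 and 0.999). The 6 points share libraries and base composition, 1234 genes had r over 0.9, and these values are a description. None of the 5 passed edgeR's test between the ages, with adjusted p from 0.563 for Btbd2 to 0.885 for Plcg1.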
